A study of Mus musculus with 24 samples.

Results

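The NAD synthesis and NMN uptake genes were taken as the rows of both count tables whose symbol was Nampt, Naprt, Nmrk1, Nmrk2, Nmnat1, Nmnat2, Nmnat3, Nadsyn1, Slc12a8 or Nnmt. All 10 were found among the 54658 gene symbols of each table. RNA had been sequenced from C57BL/6 male mice, 7 to 12 weeks old, in a pair of peritonitis models. In the sterile model, 1 mL of Brewer thioglycollate medium (TGC) was injected into the peritoneum and the mice received daily saline (vehicle, 6 mice) or β-nicotinamide mononucleotide (β-NMN, 185 mg/kg per day, 6 mice). Their peritoneal cells were plated and exposed to E. coli for 6 h, so every peritoneal library, vehicle included, came from bacteria-stimulated cells. In the septic model, cecal ligation and puncture (CLP), the same dose or saline was given after the puncture, and the heart and the lung were taken from each of 3 vehicle and 3 β-NMN mice 24 h after the last dose. Titles, tissue labels and the study's methods give CLP for these organs, whereas their source labels name thioglycollate peritonitis, and CLP is used here. All 6 CLP mice had undergone the puncture, so the organ values compare treatments and not operated with healthy mice.

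Cells make NAD+ by recycling nicotinamide, from nicotinic acid, from nicotinamide riboside or from tryptophan. Nampt turns nicotinamide into NMN, Nmrk1 and Nmrk2 phosphorylate nicotinamide riboside to NMN, and the 3 NMNAT enzymes join NMN to an adenylyl group to form NAD+, in the nucleus (Nmnat1), at the Golgi and in axons (Nmnat2) or in mitochondria (Nmnat3). Naprt starts the nicotinic acid branch and Nadsyn1 ends it by amidating its product, Slc12a8 has been described as an NMN transporter, and Nnmt methylates nicotinamide and so takes it out of the salvage route.

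Library totals ran from 31126823 to 112456050 counts in peritoneal cells, from 27319513 to 68523239 in hearts and from 8915366 to 28356786 in lungs. A pair of libraries stood apart from their tissue. Both came from vehicle mouse 2. The SD of its log2 differences from the other libraries was 0.99 in the heart, against 0.39 to 0.58 in the others, and 1.57 in the lung, against 0.45 to 0.60. This heart held 98.0 CPM (counts scaled to library totals that carry TMM factors, which adjust for composition among the libraries of a tissue) of 4 mesothelium markers summed, against 5.66 to 12.1 in the other hearts, and 32279 CPM of 7 cardiomyocyte markers, against 48355 to 55439. The lung of this mouse had the lowest total and 1342 CPM of 7 macrophage markers, against 3982 to 5477. The labelled tissues held: the cardiomyocyte markers summed to 75.3 to 552 CPM in lungs, and 6 alveolar epithelium markers to 0.961 to 4.93 CPM in hearts and 25185 to 46408 CPM in lungs. In peritoneal cells the macrophage markers summed to 5620 to 8547 CPM in vehicle and 10570 to 12138 CPM in β-NMN libraries. Of these 7 markers only 3 were called higher with β-NMN and none lower, with a median log2 change of 0.24. Resident peritoneal macrophage markers (5) summed to 25.6 to 36.5 CPM and 36.1 to 108 CPM, and of the 4 tested Timd4 and Prg4 were higher and Gata6 and Icam2 lower with β-NMN. T cell markers (6) summed to 5.34 to 19.8 CPM and 2.12 to 4.72 CPM. In all of these bulk samples, fewer cells of a type and less RNA per cell cannot be told apart.

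The 10 genes lie on 9 mouse chromosomes and all are protein coding in GENCODE M21 (GRCm38, the build mm10). The salvage gene Nampt occupies chr12:32819545-32853349 on the plus strand, with 13 merged exons. Naprt lies at chr15:75890956-75894481 on the minus strand. The riboside kinases are far apart, with Nmrk1 at chr19:18631950-18652428 on the plus strand and Nmrk2 at chr10:81198170-81202051 on the minus strand. Of the adenylyl transferases, Nmnat1 lies at chr4:149467572-149485202 (minus), Nmnat2 at chr1:152954993-153119261 (plus) and Nmnat3 at chr9:98287435-98420438 (plus). Nadsyn1 lies at chr7:143795584-143822849 (minus), Slc12a8 at chr16:33517328-33664135 (plus) and Nnmt at chr9:48591877-48605153 (minus). A part of the exons of Naprt (277 bases of 2344) is shared with Eef1d on the same strand, and 270 of the 1854 exon bases of Nmrk2 lie opposite the antisense gene Atcayos. The sources used here do not state how reads over shared bases were assigned or whether strand was used, which leaves the levels of Naprt and Nmrk2 less certain. The other 8 share no exon base with another gene.

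RefSeq promoter entries (GRCm38.p6, the 250 bases before a start) were matched for 8 of the 10 genes. They are shown for 3 of them, chosen because the results turn on these genes: Nampt, the member with the highest level, and the kinase pair Nmrk1 and Nmrk2, of which the first fell in peritoneal cells and the second marked the heart. Bases inside a GENCODE exon were left out, and capitals mark each match, on either strand, to the TATA box letters TATAAA, the CCAAT box, the GC box letters GGGCGG, or either of the E-box forms, of which one is CACGTG and the other is CAGCTG. None of these motifs is contained in another.
Nampt, chr12:32820085-32820334, plus strand: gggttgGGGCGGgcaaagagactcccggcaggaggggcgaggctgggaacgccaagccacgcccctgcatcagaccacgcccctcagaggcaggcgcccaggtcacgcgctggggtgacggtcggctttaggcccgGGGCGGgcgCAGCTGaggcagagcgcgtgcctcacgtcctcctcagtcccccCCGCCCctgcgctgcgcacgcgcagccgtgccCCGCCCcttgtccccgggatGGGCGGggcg
Nmrk1, chr19:18631824-18631949, plus strand: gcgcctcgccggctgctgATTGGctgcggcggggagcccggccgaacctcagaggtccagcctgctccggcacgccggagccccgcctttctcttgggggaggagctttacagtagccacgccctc
Nmrk2, chr10:81202052-81202287, minus strand: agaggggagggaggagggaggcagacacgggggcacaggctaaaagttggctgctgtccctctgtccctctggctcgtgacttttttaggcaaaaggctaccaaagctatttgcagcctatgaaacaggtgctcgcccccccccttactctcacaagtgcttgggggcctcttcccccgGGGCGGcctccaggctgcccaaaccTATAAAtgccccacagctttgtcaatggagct

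The paralogs differed in base composition. Over the whole 250-base window, Nampt had 75.6% G and C with a CpG observed over expected ratio of 0.756, Nmrk1 had 69.2% with 0.702, and Nmrk2 had 58.8% with 0.231. The medians over 32851 promoter windows were 52.4% and 0.373. The Nmrk2 window alone among the 3 held TATAAA, which 12.4% of all windows contained. GGGCGG was present in 32.7% of all windows and was found 5 times in the Nampt window and 1 time in the Nmrk2 window. The Nampt window lies before a RefSeq start but inside the GENCODE span of the gene, which begins at chr12:32819545, and outside its exons. CCAAT, present in 33.8% of windows, was found in the Nmrk1 window, and CAGCTG, present in 13.0%, in the Nampt window. CACGTG, in 6.02% of all windows, was not in these 3 windows. A match describes the letters only.

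The levels of the 10 genes per kilobase of exon (RPKM, from merged exon lengths, mean over all libraries of a tissue) were led by Nampt everywhere. Nampt was the highest of the 10 in 12 of 12 peritoneal, 6 of 6 heart and 6 of 6 lung libraries. Its level was 236 ± 50.3 RPKM (SD, n = 12) in peritoneal cells, 43.0 ± 8.88 (n = 6) in hearts and 25.5 ± 6.91 (n = 6) in lungs. In peritoneal cells this was the 226th highest level of 17976 genes ranked, and in hearts and lungs the 821st of 18152 and the 1991st of 21417. Nampt made up 98.2% ± 0.378 of the summed RPKM of the 10 genes in vehicle peritoneal cells (n = 6), against 58.8% ± 8.88 in vehicle hearts (n = 3) and 55.9% ± 3.34 in vehicle lungs (n = 3). The peritoneal and CLP libraries come from separate experiments, so these levels stand side by side without a test.

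Below Nampt the order depended on the tissue. In peritoneal cells Naprt followed at 1.33 ± 0.311 RPKM and was above the next gene in 11 of 12 libraries. Nmrk1 (0.725 ± 0.413), Nadsyn1 (0.714 ± 0.144) and Nmnat3 (0.688 ± 0.140) differed by less than their spread, with Nmrk1 above Nadsyn1 in 5 of 12 libraries. Nmnat1 came next (0.523 ± 0.114), then Nnmt (0.282 ± 0.250). Slc12a8 (0.0573 ± 0.0321), Nmnat2 (0.0402 ± 0.0226) and Nmrk2 (0.0240 ± 0.0248) were lowest, and neighbours among them also differed by less than their spread.

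In hearts the order was Naprt (8.58 ± 1.14 RPKM), Nmnat1 (4.71 ± 1.34), Nmnat3 (3.92 ± 0.882), Nmrk2 (3.87 ± 1.49), Nnmt (2.87 ± 2.50), Nadsyn1 (1.42 ± 0.204), Nmrk1 (0.955 ± 0.134), Slc12a8 (0.267 ± 0.120) and Nmnat2 (0.131 ± 0.120). The levels from Nmnat1 to Nnmt overlapped within their spread. In lungs Nnmt (8.12 ± 3.24 RPKM) and Naprt (6.99 ± 0.914) shared the place after Nampt, each being the higher in 3 of 6 libraries. Nadsyn1 (1.83 ± 0.681), Nmrk1 (1.38 ± 0.312), Nmnat1 (1.30 ± 0.357), Nmnat2 (1.15 ± 0.280) and Nmnat3 (0.919 ± 0.281) formed a group whose neighbours differed by less than their spread. Slc12a8 (0.106 ± 0.0590) and Nmrk2 (0.0322 ± 0.0514) were lowest. The length used mattered for the middle of the order: with the longest transcript as length, 16 of the 30 ranks held. Nampt stayed first in the 3 tissues, Slc12a8 ninth in hearts and lungs, and Nmrk2 last in peritoneal cells and lungs. Nmnat3, already above Nmnat1 in peritoneal cells, was also above it in hearts and lungs with that length.

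**Figure D1:**
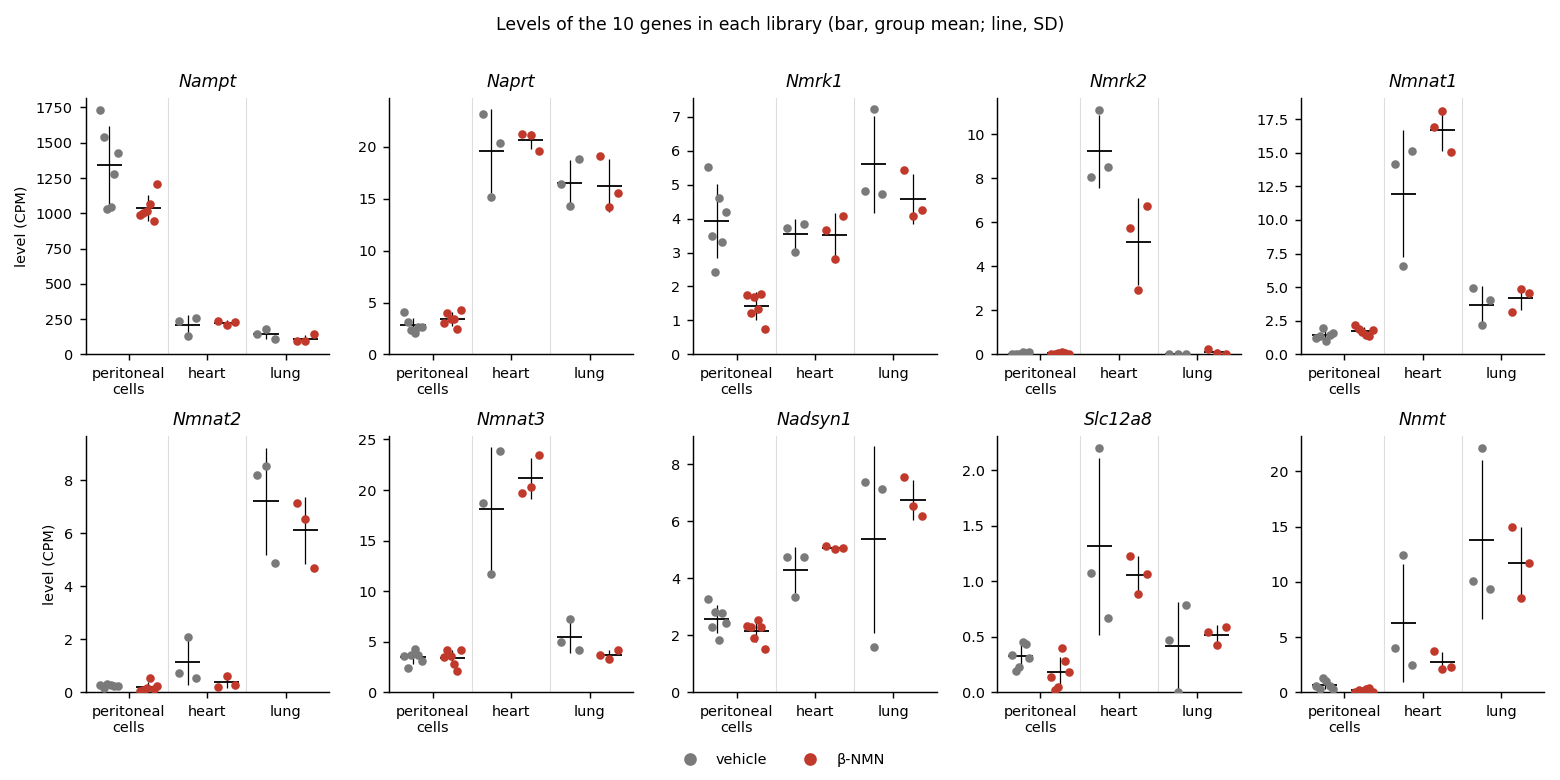
Level of each of the 10 genes (CPM, linear axes that start at 0 and differ between panels) in every peritoneal, heart and lung library, with the group mean as a bar and the SD as a line. The 6 β-NMN peritoneal libraries sit below all 6 vehicle libraries for Nmrk1, and Nmrk2 lies at 2.92 to 11.1 CPM in hearts and reaches at most 0.244 CPM in the other libraries.

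With β-NMN, Nmrk1, Nnmt and Nampt were lower in peritoneal cells, and no member was called higher. In edgeR's quasi-likelihood test with Benjamini-Hochberg adjustment over all 14985 genes tested, 3 of the 9 members tested passed an adjusted p of 0.05. Over all genes tested, 51.6% were called, 23.7% higher and 27.9% lower, and the share of members called was below this background. Across the 9 members the median log2 change was -0.35, and across all genes tested it was -0.02. The groups did not overlap for 1 of the 9 members, against 26.6% of all genes.

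Nmrk1, the nicotinamide riboside kinase of most tissues, changed most clearly. The 6 vehicle libraries ranged from 2.42 to 5.53 CPM with a median of 3.85, and the 6 β-NMN libraries from 0.745 to 1.78 CPM with a median of 1.52. Every β-NMN library lay below every vehicle library. The log2 fold change was -1.46 (SE 0.23, 95% interval -1.95 to -0.97, edgeR adjusted p = 0.00011). The exact two-sided permutation test of mean log2 CPM gave p = 0.00216, the smallest that 6 against 6 allows. Leaving out each library in turn gave log2 fold changes of -1.52 to -1.30, all still called. Sequencing depth differed between libraries, with 3 vehicle and 2 β-NMN libraries above 70000000 counts. Within the deep and the shallow libraries alone, the mean log2 CPM difference was -1.43 in each, without overlap between the treatments (within-depth values were chosen after seeing the data).

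Nampt, the rate-limiting enzyme of nicotinamide salvage, was also lower, by a smaller amount. Its level was 1029 to 1735 CPM (median 1353) in vehicle and 947 to 1207 CPM (median 1009) in β-NMN libraries. The ranges overlapped: vehicle 3 (1029 CPM) and vehicle 4 (1047 CPM) lay among the β-NMN libraries. It came to a log2 fold change of -0.37 (SE 0.13, 95% interval -0.64 to -0.10, edgeR adjusted p = 0.0246; exact permutation p = 0.0238). This call was lost when vehicle 1 or 2 or β-NMN 1, 3, 4 or 5 was left out, with log2 fold changes of -0.34 to -0.26 and edgeR adjusted p from 0.0549 to 0.0876. It was also lost without the low-count filter (adjusted p = 0.0612) and with all 24 libraries in one fit (0.120). Beside it, 7 neutrophil markers summed to 491 to 998 CPM in vehicle and 334 to 467 CPM in β-NMN libraries. Most of this sum was Csf3r (383 to 689 CPM and 294 to 447 CPM). Of the 7 markers 5 fell, Retnlg rose and Mmp8 was not called, with a median log2 change of -4.10. The 2 vehicle libraries with the most Nampt, 1 and 2, held the highest neutrophil sums (998 and 898 CPM), and the 2 with the least, 3 and 4, the lowest of that group (491 and 592 CPM). Among β-NMN libraries the order was not kept. β-NMN 6 was highest in both (1207 CPM of Nampt and 467 CPM). However, β-NMN 5 had the least Nampt (947 CPM) with a sum of 448 CPM, and β-NMN 4 had 1065 CPM with a sum of 370 CPM. The part of neutrophils in the Nampt difference was not tested.

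Naprt, which starts the nicotinic acid branch, was not called. It measured 2.09 to 4.06 CPM (median 2.64) in vehicle and 2.42 to 4.30 CPM (median 3.46) in β-NMN libraries, with overlapping ranges. The log2 fold change was 0.30 (SE 0.18, 95% interval -0.08 to 0.68, edgeR adjusted p = 0.178), and it passed without vehicle 1 (0.45, adjusted p = 0.0359). The balance between both entry enzymes, however, separated the groups. The log2 ratio of Nampt to Naprt (CPM with a prior count of 2) was 8.89 ± 0.122 (SD, n = 6) in vehicle and 8.25 ± 0.211 (n = 6) in β-NMN libraries. The difference of -0.64 had p = 0.00216 in the exact two-sided permutation test, 0.0108 after Benjamini-Hochberg adjustment over 5 ratios, and the groups did not overlap. It passed without each library in turn (-0.71 to -0.59). No background of ratios over other gene pairs was taken, and 26.6% of single genes separated the groups in this tissue. The 3 ratios among the NMNAT genes had adjusted p of 0.242 to 0.314, and the Nampt to Nnmt ratio had a difference of 1.52 with adjusted p = 0.103. The number of ratios that passed rose from 1 to 4 without β-NMN 4, and to 2 without β-NMN 5.

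Nnmt, which methylates nicotinamide, had the largest fitted change at a low level. Vehicle libraries held 0.284 to 1.33 CPM (median 0.607) and β-NMN libraries 0.0439 to 0.408 CPM (median 0.146), that is 302 counts in all against 59. The ranges overlapped. edgeR gave a log2 fold change of -1.91 (SE 0.54, 95% interval -3.06 to -0.76, edgeR adjusted p = 0.00837; exact permutation p = 0.013). Leaving out each library in turn kept the call, with log2 fold changes of -2.22 to -1.59. Nnmt is abundant in connective tissue cells, and 5 fibroblast markers, none at 0 in a peritoneal library, summed to 111 to 1173 CPM in vehicle and 22.9 to 99.8 CPM in β-NMN libraries. Vehicle 3 had the most Nnmt (1.33 CPM) and the highest fibroblast sum (1173 CPM), and vehicle 4 the next in both (1.01 CPM and 498 CPM). The order was not kept below these, since vehicle 1 had the lowest fibroblast sum of its group (111 CPM) with 0.614 CPM of Nnmt, and vehicle 2 had 293 CPM with 0.350 CPM. The part of fibroblasts in the Nnmt difference was not tested.

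**Figure D2:**
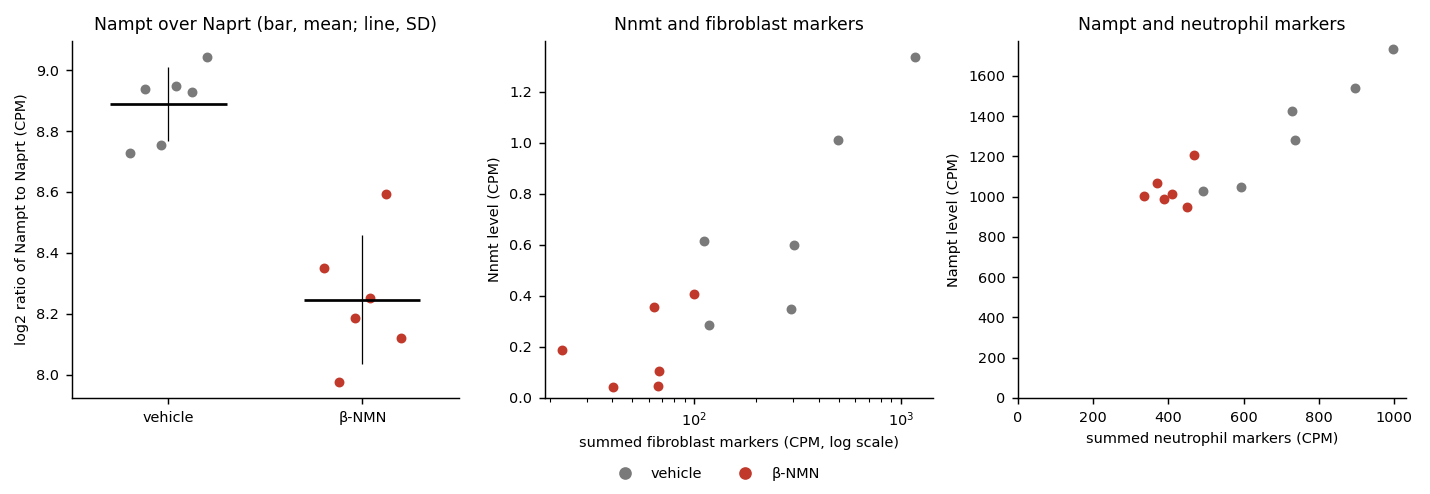
Peritoneal libraries by treatment: the log2 ratio of Nampt to Naprt with group mean and SD (the axis does not start at 0), Nnmt (CPM) against the summed fibroblast markers (CPM, log axis), and Nampt (CPM) against the summed neutrophil markers (CPM). The ratio means are 8.89 in vehicle and 8.25 in β-NMN libraries, and vehicle 3 lies at the upper right of the Nnmt panel with 1.33 CPM of Nnmt and 1173 CPM of fibroblast markers.

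Slc12a8, described as an NMN transporter, was barely read in peritoneal cells. Its counts were 10 to 50 in vehicle libraries and 2 to 18 in β-NMN libraries, and its level was 0.194 to 0.455 CPM (median 0.327) against 0.0219 to 0.402 CPM (median 0.164). The ranges overlapped. The log2 fold change was -0.94 (SE 0.50, 95% interval -2.01 to 0.13, edgeR adjusted p = 0.129). It passed with the newer quasi-likelihood form (-1.15, adjusted p = 0.0332), with limma-voom (-1.57, 0.0188) and without β-NMN 4 (-1.32, 0.0405). A change of this transporter was not settled at this depth. The difference was uneven over depth: mean log2 CPM differed by -2.17 within deep and by -0.32 within shallow libraries.

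The NMNAT enzymes and the NAD+ synthetase showed no called change in peritoneal cells. Nuclear Nmnat1 measured 0.982 to 1.99 CPM in vehicle and 1.38 to 2.21 CPM in β-NMN libraries (log2 fold change 0.28, 95% interval -0.13 to 0.69, edgeR adjusted p = 0.235). Mitochondrial Nmnat3 measured 2.45 to 4.28 CPM and 2.09 to 4.23 CPM (-0.02, 95% interval -0.41 to 0.36, edgeR adjusted p = 0.928). Golgi-associated Nmnat2 was rare, at 8 to 30 counts and 4 to 25 counts per library (-0.35, 95% interval -1.35 to 0.66, edgeR adjusted p = 0.566). This value turned on single libraries, at -0.91 without β-NMN 4 (edgeR adjusted p = 0.0702), -0.07 without β-NMN 1 and -0.90 with limma-voom (adjusted p = 0.129). Its mean log2 CPM differed by -1.52 within deep libraries, without overlap, and by 0.001 within shallow ones, which include β-NMN 4. The part of depth in this value was not tested. The NAD+ synthetase Nadsyn1 measured 1.84 to 3.28 CPM and 1.51 to 2.55 CPM (-0.25, 95% interval -0.61 to 0.11, edgeR adjusted p = 0.229). The intervals of Nmnat1, Nmnat3 and Nadsyn1 lie within 0.69 of 0 on the log2 scale, whereas that of Nmnat2 does not. Nmrk2 failed the low-count filter and was not tested, with 0, 0, 0, 11, 6 and 10 counts in vehicle libraries 1 to 6 and 3, 1, 2, 6, 2 and 0 in β-NMN libraries 1 to 6.

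In CLP hearts no member was called with β-NMN, and none of all 16245 genes tested was (0% called). At an unadjusted p below 0.05 edgeR had 1837 genes, 2 of the 10 members among them, and at the adjusted threshold DESeq2 called 283 genes and limma-voom 3, none a member. The groups did not overlap for 2 of the 10 members, Nmrk2 and Nadsyn1, against 23.1% of all genes tested. With 3 against 3, the exact permutation test cannot go below p = 0.1.

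Nmrk2, the striated muscle riboside kinase, was lower in each β-NMN heart. Vehicle hearts 1 to 3 held 8.07, 11.1 and 8.50 CPM, and β-NMN hearts 1 to 3 held 5.73, 2.92 and 6.73 CPM. All 3 β-NMN hearts lay below the lowest vehicle heart. The difference was not called (log2 fold change -0.85, SE 0.32, 95% interval -1.61 to -0.09, edgeR adjusted p = 0.435). Without adjustment edgeR gave p = 0.0339, and the exact permutation test gave p = 0.1. Leaving out 1 heart at a time gave -1.10 to -0.56. Its paralog Nmrk1 measured 3.73, 3.03 and 3.84 CPM in vehicle and 3.65, 2.81 and 4.08 CPM in β-NMN hearts (log2 fold change -0.01, 95% interval -0.54 to 0.52). The share of Nmrk2 in the summed RPKM of both kinases came to 83.5% ± 3.83 with vehicle and 73.3% ± 5.10 with β-NMN (SD, 3 hearts each).

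Nadsyn1 was higher in each β-NMN heart (5.14, 5.04 and 5.07 CPM) than in the vehicle hearts (4.76, 3.35 and 4.74 CPM). This log2 fold change of 0.25 (95% interval -0.23 to 0.72, edgeR adjusted p = 0.564) was not past the threshold. Nmnat2 had 0.753, 2.11 and 0.553 CPM in vehicle and 0.223, 0.628 and 0.279 CPM in β-NMN hearts (-1.57, SE 0.64, edgeR adjusted p = 0.435). Its groups overlapped, since the second β-NMN heart was above the third vehicle heart. Without vehicle heart 2 the Nmnat2 value came to -0.77 (edgeR adjusted p = 0.635), and over all single omissions it ran from -2.15 to -0.77.

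Vehicle heart 2, the library with the high mesothelium sum, set many of the heart values. It had the lowest Nampt (132 CPM, against 207 to 257 CPM in the other 5 hearts), Naprt (15.2 against 19.6 to 23.2 CPM, but 18.7 against 18.4 to 22.6 CPM on plain totals, where it was not the lowest), Nmnat1 (6.55 against 14.1 to 18.1 CPM) and Nmnat3 (11.7 against 18.7 to 23.9 CPM). It had the highest Nnmt (12.4 against 2.12 to 4.00 CPM), Nmnat2 (2.11 against 0.223 to 0.753 CPM) and Slc12a8 (2.20 against 0.669 to 1.23 CPM). Its Nmrk2 was the highest as well (11.1 against 2.92 to 8.50 CPM). The fitted log2 fold changes of the remaining members were 0.11 for Nampt, 0.08 for Naprt (-0.03 with plain library totals, a scaling added after seeing the data), 0.48 for Nmnat1, 0.23 for Nmnat3, -0.32 for Slc12a8 and -1.22 for Nnmt, with edgeR adjusted p of 0.449 to 0.833. Without that heart, Nampt, Naprt, Nmnat3 and Slc12a8 changed sign, to -0.14, -0.09, -0.01 and 0.25, and Nnmt came to -0.28, Nmnat1 to 0.18 and Nadsyn1 to 0.09. The part of its tissue makeup in these values was not tested.

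In CLP lungs again no member was called, nor any of the 17008 genes tested (0% called). edgeR had 301 genes and no member at an unadjusted p below 0.05, and at the adjusted threshold DESeq2 called 9 genes and limma-voom 7, none a member. The groups did not overlap for 1 of the 9 members tested, against 8.21% of all genes. That member was Nmnat3, with 4.99, 7.22 and 4.18 CPM in vehicle and 3.72, 3.29 and 4.18 CPM in β-NMN lungs 1 to 3, the third libraries being nearly equal. On plain totals its groups overlapped, at 4.39 CPM in vehicle and 4.55 CPM in β-NMN lung 3. Its log2 fold change was -0.54 (95% interval -1.36 to 0.28, edgeR adjusted p = 0.969). Nampt had 145, 183 and 113 CPM in vehicle and 93.0, 95.3 and 144 CPM in β-NMN lungs (-0.41, 95% interval -1.11 to 0.29, adjusted p = 0.969), and the groups overlapped. Vehicle lung 2 was the highest for both, though on plain totals not for Nampt (142 CPM, against 157 CPM in β-NMN lung 3), and without it Nmnat3 came to -0.30 and Nampt to -0.22.

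The other lung members had log2 fold changes of -0.28 for Nmrk1, -0.23 for Nmnat2, -0.22 for Nnmt, -0.03 for Naprt (0.09 with plain library totals), 0.13 for Slc12a8, 0.16 for Nmnat1 and 0.31 for Nadsyn1, with edgeR adjusted p of 0.969 to 0.993. Vehicle lung 2, with 8915366 counts, was lowest for Nadsyn1 (1.59 CPM, against 6.20 to 7.55 CPM in the others) and highest for Nnmt (22.1 against 8.55 to 15.0 CPM) and Nmrk1 (7.22 against 4.06 to 5.42 CPM). It had 0 counts of Slc12a8, where the other lungs had 9 to 19. Without that lung the values of Nadsyn1 (-0.11), Nmnat1 (-0.09), Nnmt (0.27) and Slc12a8 (-0.26) had the opposite sign, and Nmrk1 came to -0.07 and Nmnat2 to -0.11. Nmrk2 was not tested in lungs, with 0 counts in each vehicle lung and 4, 2 and 1 counts in the β-NMN lungs.

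**Figure D3:**
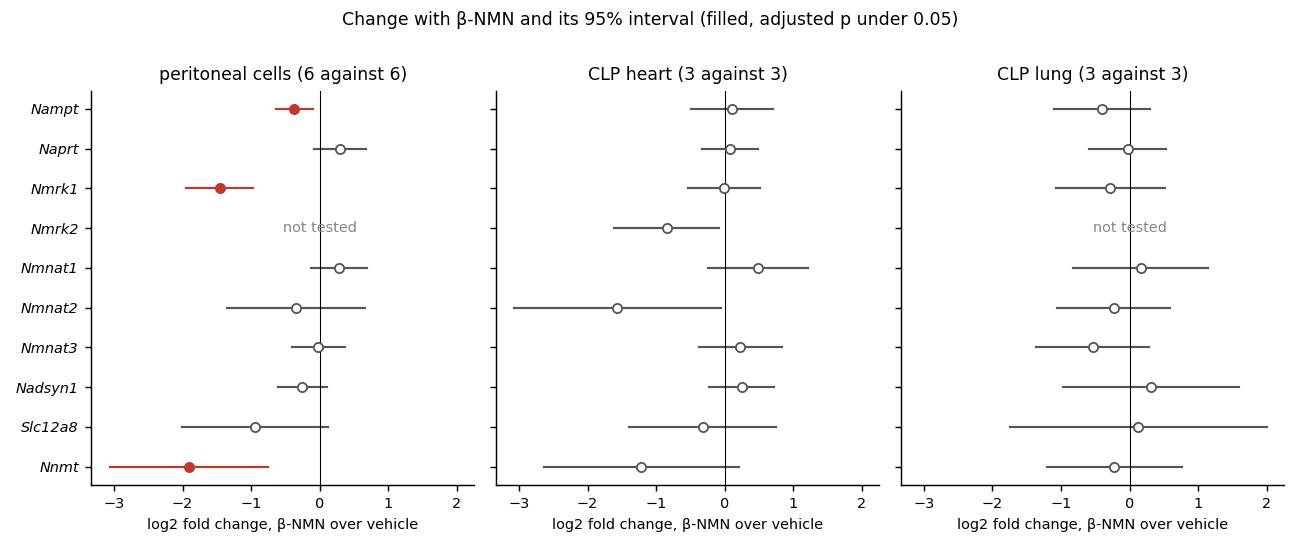
Log2 fold change of β-NMN over vehicle with its 95% interval for each gene in peritoneal cells, CLP hearts and CLP lungs, filled where the edgeR adjusted p is under 0.05. The filled points are Nmrk1 (-1.46), Nnmt (-1.91) and Nampt (-0.37) in peritoneal cells, and no point is filled in hearts or lungs.

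The organs differed in which enzymes and paralogs they held. Between heart and lung of the same 6 mice, edgeR called 8 of the 10 members, 6 higher and 2 lower in the heart. Over all 18318 genes tested 64.8% were called, 28.9% higher and 35.9% lower in the heart, and the members' share was above that background. These counts depended on the scaling between organs. With plain library totals in place of TMM factors (added after seeing the data), 70.2% of all genes were called, 15.1% higher and 55.1% lower in the heart, and 7 members passed, 4 higher and 3 lower, a share near that background. Of all called genes 44.6% were higher in the heart with TMM factors and 21.5% with plain totals. With TMM factors the groups did not overlap for 7 of the 10, against 43.4% of all genes. On plain totals Naprt and Slc12a8 overlapped between organs, and no such share over all genes was taken. Heart over lung, the median log2 change was 1.21 for the 10 members and -0.14 for all genes with TMM factors, and 0.51 and -0.82 with plain totals. All fold changes between organs are therefore relative to a scaling.

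Nmrk2 was read in each heart and hardly in the lungs. The 6 hearts held 2.92 to 11.1 CPM (1407 counts in all in vehicle and 746 in β-NMN hearts), and the lungs 0 counts in vehicle and 7 in β-NMN libraries. Summed over the vehicle mice it was at least 187-fold higher in the heart, the lungs being set to a floor of 3 counts over the group, and at least 152-fold with the upper end of their 95% counting interval in place of the floor. In β-NMN mice the ratio was 50.9 (95% counting interval 24.6 to 127). These bounds cover counting error only. The fitted log2 fold change of 8.90 (edgeR adjusted p = 4.03e-07) depends on the prior count because of the zeros. Nmrk2 failed the low-count filter in lungs alone and entered this fit only through the hearts, where it was high. The same holds for its place among the called members, its ratio to Nmrk1 and its interaction value. Its p-values between organs are therefore given as a description. Nmrk1, by contrast, was at 2.81 to 4.08 CPM in hearts and 4.06 to 7.22 CPM in lungs on separately scaled tables, with a log2 fold change of 0.17 (95% interval -0.25 to 0.59, edgeR adjusted p = 0.457). It passed in favour of the heart without vehicle mouse 2 (0.41, adjusted p = 0.0301) and with limma-voom (0.30, 0.0401). With plain totals the direction turned and Nmrk1 was called lower in the heart (-0.51, adjusted p = 0.0327). Per kilobase Nmrk2 exceeded Nmrk1 in 6 of 6 hearts and in 0 of 6 lungs, and its median ratio in hearts was 3.79 with merged exons and 1.99 with the longest transcript.

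The NMNAT family differed as well. Nmnat1 (log2 fold change 2.49, SE 0.27, edgeR adjusted p = 8.95e-06) and Nmnat3 (2.81, SE 0.21, adjusted p = 3.11e-07) were higher in the heart, and Nmnat2 (-2.63, SE 0.39, adjusted p = 9.68e-05) was lower. These 3 calls stood with plain totals, at 1.76, 2.11 and -3.26. Nmnat2 measured 0.223 to 2.11 CPM in hearts and 4.69 to 8.52 CPM in lungs. It made up 34.6% ± 6.25 of the NMNAT RPKM in lungs with vehicle and 33.4% ± 7.51 with β-NMN, against 3.34% ± 3.63 and 0.659% ± 0.362 in hearts (SD, 3 libraries each). In peritoneal cells, which stand beside the organs without a test, its share was 3.61% ± 0.453 in vehicle and 2.98% ± 2.79 in β-NMN libraries (SD, n = 6 each), and Nmnat3 held 57.2% ± 7.77 and 52.4% ± 4.53. These shares rest on merged exon lengths. Nmnat3 was above Nmnat2 per kilobase in 1 of 6 lungs with them and in 6 of 6 with the longest transcript, and Nmnat1 was above Nmnat3 in 2 of 12 peritoneal libraries with merged exons and in 0 of 12 with the longest transcript.

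Ratios were also taken within each mouse. The log2 ratio of Nmrk1 to Nmrk2 was -0.92 ± 0.605 in hearts and 5.25 ± 0.834 in lungs (SD, n = 6 mice). With 0 counts of Nmrk2 in each vehicle lung, the size of this ratio depends on the prior count, and the difference of -6.17 between organs became -7.52 with a prior count of 0.5. That of Nmnat1 to Nmnat2 was 4.46 ± 1.54 and -0.76 ± 0.690, and that of Nmnat3 to Nmnat2 was 4.95 ± 1.40 and -0.54 ± 0.373. The log2 ratio of Nampt to Nnmt was 5.85 ± 1.25 in hearts and 3.36 ± 0.445 in lungs. Each of these 4 differences had the same direction in 6 of 6 mice, with p = 0.03125 in the exact two-sided sign-flip permutation test, the smallest that 6 mice allow, and 0.0469 after Benjamini-Hochberg adjustment over 6 ratios. Nmnat1 to Nmnat3 differed by -0.26 (4 of 6 mice, adjusted p = 0.375) and Nampt to Naprt by 0.47 (5 of 6 mice, adjusted p = 0.188). These ratios are of CPM, so their difference between organs, not their size, is what they show.

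The remaining members ordered as follows. Nampt was higher in the heart (log2 fold change 1.45, SE 0.21, 95% interval 1.00 to 1.90, edgeR adjusted p = 7.48e-05), also with plain totals (0.75, adjusted p = 0.0025). Naprt was called higher with TMM factors (0.97, SE 0.16, adjusted p = 0.000187) but not with plain totals (0.27, adjusted p = 0.159), and as CPM of unscaled totals it measured 18.4 to 22.6 CPM in hearts and 11.1 to 19.7 CPM in lungs, with overlap. Slc12a8, at 0.669 to 2.20 CPM in hearts and 0 to 0.787 CPM in lungs, was called higher in the heart too (1.90, SE 0.48, adjusted p = 0.00446), and with plain totals it came to 1.24 (adjusted p = 0.0505). Nnmt was lower (-0.93, SE 0.38, adjusted p = 0.048), but its groups overlapped and the call was lost with any mouse except vehicle 2 left out (-0.97 to -0.81, adjusted p of 0.0719 to 0.149) and with DESeq2 size factors (adjusted p = 0.0506). It came to -1.51 with plain totals (adjusted p = 0.00587). Without vehicle mouse 2 it was -1.07 (adjusted p = 0.000874), and with the mouse as a block -1.05 (adjusted p = 0.00311). Nadsyn1 did not pass (0.28, 95% interval -0.40 to 0.96, adjusted p = 0.449), and its sign turned with plain totals (-0.44, adjusted p = 0.258).

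**Figure D4:**
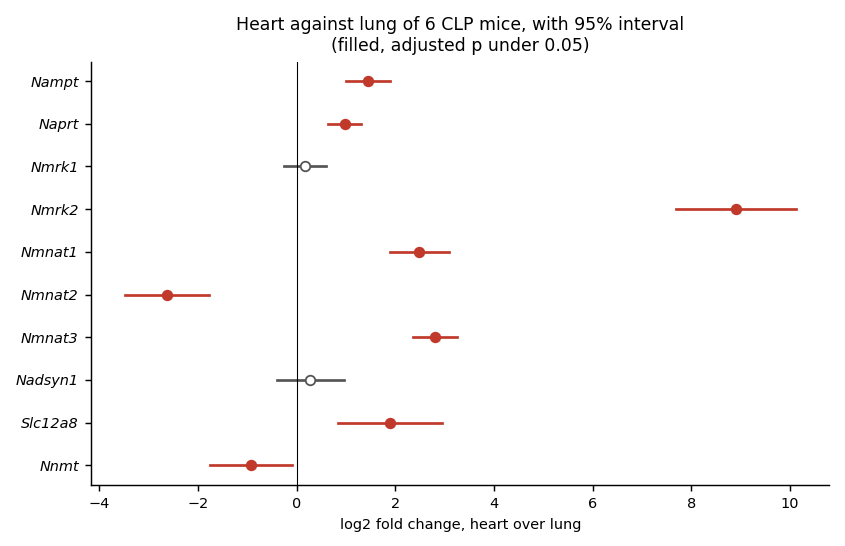
Log2 fold change of heart over lung with its 95% interval for each gene in 6 CLP mice, filled where the edgeR adjusted p is under 0.05. Nmrk2 lies at 8.90, Nmnat1 and Nmnat3 at 2.49 and 2.81, and Nmnat2 at -2.63, all on the TMM scale; with plain totals Naprt and Slc12a8 were not called, and Nmrk1 and Nadsyn1 changed sign.

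**Figure D5:**
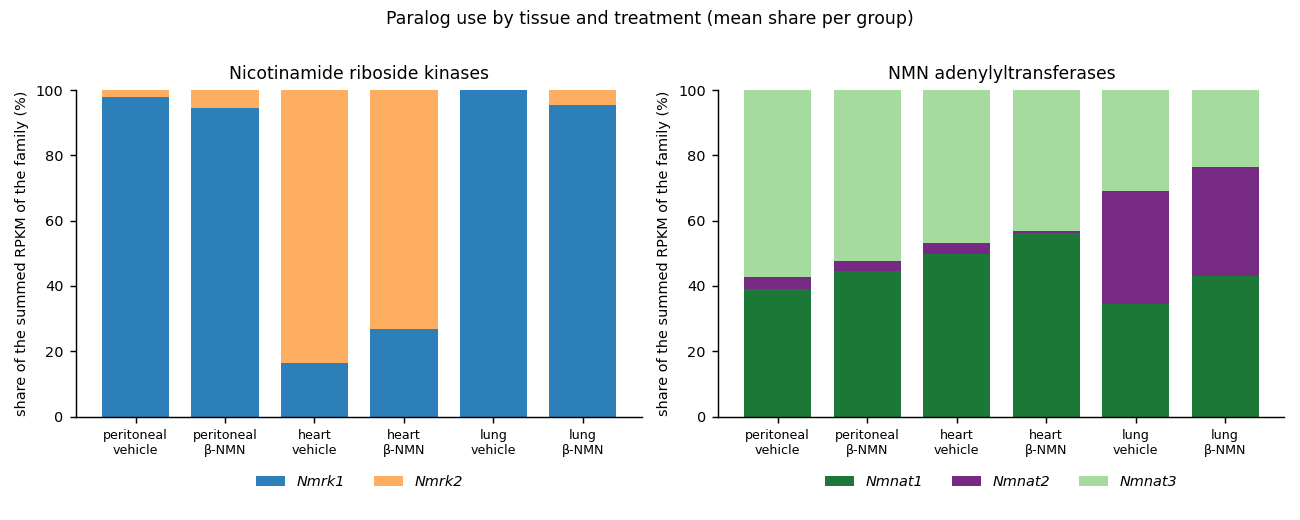
Mean share (%) of each paralog in the summed RPKM of the riboside kinases and of the NMN adenylyl transferases in the 6 groups. Nmrk2 holds 83.5% in vehicle hearts and 0% in vehicle lungs, and Nmnat2 holds 34.6% in vehicle lungs and 3.34% in vehicle hearts.

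The difference of the β-NMN effect between organs was called for none of the 10 members, and for 0 of 18318 genes in edgeR's interaction test (0% called, 797 genes and 1 member at an unadjusted p below 0.05, 14 genes with DESeq2 and 0 with limma-voom). That member was Nmrk2 (log2 difference -5.38, SE 1.43, edgeR adjusted p = 0.96, a fitted value that depends on the prior count), which was lower in β-NMN hearts and had 7 counts in β-NMN against 0 in vehicle lungs.

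Beyond the 10 genes, 47 of 48 listed genes of the NAD pathway and of the SLC12 family were in the tables. In peritoneal cells 34 were tested, of which β-NMN libraries had 10 at higher and 9 at lower levels. With 51.6% of all genes called, 23.7% higher and 27.9% lower, this is near the background, and the counts of the smaller lists are a description. In hearts 36 and in lungs 39 were tested and none was called in edgeR, with the counts at an unadjusted p given above for all genes. The listed genes had a median log2 change of 0.04 in peritoneal cells, beside -0.02 for all genes. Among enzymes that break down NAD and NMN outside the cell, 3 fell and 1 rose of 4 tested. The NAD glycohydrolases Cd38 (-1.36, edgeR adjusted p = 9.55e-05) and Bst1 (-0.80, adjusted p = 0.00104) fell, and the phosphodiesterase Enpp1 rose (0.96, adjusted p = 4.67e-06). In the tryptophan route 2 of 7 tested fell, Kynu (-1.55, adjusted p = 1.43e-05) and Ido1 (-1.58, adjusted p = 0.00293).

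Among nucleoside and nicotinate transporters, 2 of 4 tested rose, the equilibrative nucleoside transporters Slc29a1 (0.99, edgeR adjusted p = 1.56e-05) and Slc29a3 (1.04, adjusted p = 3.32e-05), and Slc29a2 fell (-1.20, adjusted p = 0.0105). Of the relatives of Slc12a8, 3 of 7 tested rose, the potassium-chloride cotransporters Slc12a7 (1.77, adjusted p = 5.91e-07) and Slc12a4 (0.55, adjusted p = 4.46e-05) and their relative Slc12a9 (0.85, adjusted p = 0.00118), and Slc12a2 fell (-0.89, adjusted p = 0.00259). Of the NADP and mitochondrial NAD genes, 3 of 4 tested rose and the cytosolic NAD kinase Nadk fell (-0.75, adjusted p = 2.74e-05). Of the 7 genes that cleave nicotinamide riboside or NMN, Pnp2 rose (0.69, adjusted p = 0.00843) and Nt5c3b fell (-0.64, adjusted p = 0.017).

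Between heart and lung, 14 of 39 listed genes were higher and 14 lower in the heart, beside 28.9% and 35.9% of all genes, and with plain totals 8 were higher and 20 lower, beside 15.1% and 55.1%. Both called genes of NADP and mitochondrial NAD handling were higher in the heart, the nicotinamide nucleotide transhydrogenase Nnt (5.93, edgeR adjusted p = 6.84e-08) and the mitochondrial NAD kinase Nadk2 (2.62, adjusted p = 6.82e-07). With plain totals these stood (5.20 and 1.92), and Nadk and Slc25a51 were also called, as lower (-1.23 and -0.71). Of the transporters, 2 were higher in the heart, the nucleoside transporters Slc29a2 (3.55, adjusted p = 3.86e-07) and Slc28a2 (2.82, adjusted p = 6.04e-06), and 2 were lower, Slc28a3 (-6.84, adjusted p = 7.94e-05) being the one of smallest p. With plain totals Slc29a1 and Slc29a3 were also called lower (-0.56 and -0.95). In the tryptophan route 4 of 7 tested were lower in the heart, among them Kynu (-3.89, adjusted p = 0.000293), and Afmid was higher (0.84), which was not called with plain totals (0.17). The aldehyde oxidases split, with Aox3 lower (-8.49, adjusted p = 4.96e-07) and Aox1 higher in the heart (1.37, adjusted p = 0.00353), the latter not called with plain totals (0.63, adjusted p = 0.112).

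The genes whose levels moved most like a member, after removing group means, were listed over 12 libraries. In peritoneal cells these were Atp1b3, Ifi47 and Gbp2 for Nampt (Pearson r of log2 CPM 0.95 each), Ergic1, Zmat2 and Thap4 for Nnmt (0.87, 0.87 and 0.86) and Pdik1l, Amer1 and Ttc19 for Slc12a8 (0.82, 0.82 and 0.78). In hearts and lungs they were Zkscan7, Mid1ip1 and B130024G19Rik for Nmrk2 (0.81, 0.81 and 0.80). They are the top of 9637 to 12429 genes compared, share libraries and depth, and are given as a description.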

How the data were processed

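The authors deposited 2 tables of read counts per gene symbol, raw and not normalized, 1 for peritoneal cells and 1 for hearts and lungs. The submitters' processing notes name STAR 2.7.3a, featureCounts 2.0.0 and the build mm10. The sources used here state neither the annotation nor the strand setting of the counting. The members and gene lists were chosen with earlier results of these data known. All 10 members were named in every tissue. Other genes were named by rule: up to 3 called genes of smallest p per pathway list, and the 3 most correlated genes for Nampt, Nnmt, Slc12a8 and Nmrk2. Outside this rule, Slc12a2 in peritoneal cells and Afmid, Nadk, Slc25a51, Slc29a1 and Slc29a3 between organs were named after their values were seen.

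Counts were fitted across all genes per tissue with edgeR 4.0.16 in R 4.3.3 (filterByExpr with a minimum count of 10, TMM factors, the F-test of the legacy quasi-likelihood fit, Benjamini-Hochberg adjusted p, threshold 0.05). Heart and lung were compared over the 12 CLP libraries with treatment in the model, which also gave the interaction. CPM used TMM-scaled totals per tissue, log2 CPM a prior count of 2, and RPKM the merged exon lengths of GENCODE M21. Single values were compared with exact two-sided permutation tests. The fits per tissue were tested on simulated data. Alternatives were DESeq2 1.42.0 and its size factors, limma 3.58.1 voom with quality weights, newer and robust quasi-likelihood fits, no filter, joint fits, a replicate block, a prior count of 0.5, plain library totals and leaving out each library. Vehicle and β-NMN animals of one number are different mice, and p-values within a tissue measure the spread between mice. No mouse term was in the main fits of heart against lung and of the interaction. Their p-values therefore treat both organs of a mouse as independent. Hearts and lungs of one mouse are paired by the labels, and a pair of β-NMN hearts titled replicate 3 was told apart by mouse code. No library pair agreed within sampling noise. The floor for a gene without counts was 3 counts over the group, and intervals are at 95%.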

Additional observations from a re-analysis of the deposited data

Results flagged for a closer look

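Among the β-NMN peritoneal libraries, replicate 4 had the highest Nmnat2, at 0.559 CPM from 25 counts, and its gap to the next library was 0.633 of the group's range, above the critical value of 0.625 for 6 samples. With 18 groups looked at, about 1 such sample is given by chance. Without this library, 4 of 5 ratios in peritoneal cells passed in place of 1, and Slc12a8 was called. Nmnat2 itself came to a log2 fold change of -0.91 without it (edgeR adjusted p = 0.0702), from -0.35 with it.

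Nmrk2 lay below each vehicle heart in each β-NMN heart (mean log2 CPM difference -0.91), which was not called (edgeR adjusted p = 0.435). In the lungs, where it was not tested, β-NMN libraries had 4, 2 and 1 counts and each vehicle library 0, too few to read a direction. The difference between organs did not pass edgeR's interaction test after adjustment (adjusted p = 0.96).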

How the results depend on the processing

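Every count of called members stayed within 1.5 times its value under the alternatives run: 2 to 4 in peritoneal cells (4 with limma-voom and with the newer quasi-likelihood form), 0 in hearts, lungs and the interaction, and 7 to 9 between organs. Of the other values, 774 kept their direction and side of the threshold, 40 lost the threshold, 10 gained it and 46 changed sign, of which Nmrk1 between organs with plain totals was called. The replicate number only names vehicle and β-NMN mice (correlations of -0.17 to 0.13 in peritoneal cells, 0.073 to 0.24 in hearts and -0.52 to 0.30 in lungs). With that replicate block 3 peritoneal members were called, and with the mouse as block 8 between organs, with no call changed. Leaving out a mouse brought the organ ratios past the threshold from 4 to 0 each time, because 5 mice cannot reach it, and leaving out a peritoneal library gave 1 to 4 ratios. With the longest transcript as length, 16 of 30 ranks held.

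With plain library totals (added after seeing the data) the median log2 change of all genes moved from -0.14 to -0.82 between organs, from -0.01 to -0.14 in hearts, from 0.0006 to 0.12 in lungs and from -0.04 to -0.29 in the interaction. Naprt then came to -0.032 in hearts, 0.086 in lungs and -0.12 in the interaction, Nmrk1 to -0.51 between organs and -0.0098 in the interaction, and Nadsyn1 to -0.44 between organs. Peritoneal Nmnat3 came to 0.0065 with DESeq2 size factors, 0.0074 with the DESeq2 test, 0.0078 without the filter, 0.013 with depth class as a term (added after seeing the data), 0.040 with limma-voom and -0.11 to 0.11 without each library. Limma-voom also gave -0.091 for Nampt, -0.081 for Naprt and 0.098 for Slc12a8 in hearts, -0.17 for Nadsyn1, -0.060 for Nmnat1 and 0.19 for Nnmt in lungs, and 0.29 for Nadsyn1 and 0.095 for Slc12a8 in the interaction, where Nadsyn1 was 0.023 with DESeq2 size factors and 0.036 with the DESeq2 test. Leaving out each heart gave -0.14 to 0.29 for Nampt, -0.086 to 0.22 for Naprt, -0.13 to 0.13 for Nmrk1, -0.015 to 0.48 for Nmnat3 and -0.62 to 0.25 for Slc12a8. Leaving out each lung gave -0.15 to 0.096 for Naprt, -0.091 to 0.43 for Nmnat1, -0.11 to 0.60 for Nadsyn1, -0.26 to 0.81 for Slc12a8 and -0.43 to 0.27 for Nnmt. Leaving out each mouse in the interaction gave -0.013 to 0.23 for Naprt, -0.025 to 0.38 for Nmrk1, -0.23 to 0.22 for Nadsyn1 and -1.37 to 0.54 for Slc12a8. The cause was not tested. Slc12a8 and Nmnat2 had at most 50 counts in a peritoneal library.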
